A study of Mus musculus with 240 samples.

Results

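Enolase is the glycolytic enzyme that turns 2-phosphoglycerate into phosphoenolpyruvate, and 6 of the 34623 genes of the deposited table are described here: the enolase genes Eno1, Eno2 and Eno3, and Eno1b, Gm4735 and Gm5855, which carry copies of the Eno1 coding sequence. They were taken by symbol. They were chosen by measured values, the absence of Eno1b and Gm4735 in wild-type animals at 90 days, so the genotype difference at that time is given as a description, without a test. The study followed oligodendrocyte precursor cells (OPCs), the dividing glial progenitors of the brain, from mice of genotype Trp53-/- Nf1-/- (CKO in the labels; both genes are tumour suppressors) and from wild-type mice (WT) after tamoxifen. Cells were laser-captured from sections, and bulk sample names carry the tag tdTpositive, in WT as in CKO. Bulk RNA came from CKO and WT at 12 days after the start of tamoxifen (dpi; 7 and 5 animals), CKO and WT at 90 dpi (7 and 5) and tumour cells of the mutant genotype and WT at 150 dpi (7 and 6), an animal being taken as a number in the sample names. Small libraries came only from CKO mice: 112 of 10 captured cells each and 80 pool-and-split controls, at 12 and 90 dpi, in 4 sets of each kind and time. The labels used here give no driver of recombination, strain or animal age.

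Vertebrates make enolase as dimers of alpha, beta and gamma subunits. Eno1 encodes the alpha form found in most tissues, Eno2 the gamma form, known as neuron-specific enolase and used as a marker of neurons, and Eno3 the beta form of muscle. Processed copies arise when a spliced mRNA is reverse-transcribed and inserted elsewhere in the genome, so they lack the introns of the parent gene and can share most of its sequence.

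The copies are shown first because their likeness to Eno1 bears on each value that follows. Over the 1302 coding bases of transcript Eno1-202 (GENCODE M21, GRCm38), Eno1b differed at 8 bases (99.4% identity), Gm4735 at 5 (99.6%) and Gm5855 at 47 of 1301 aligned bases (96.4%). Eno2 and Eno3 were 77.1% and 77.8% identical to it. Of the 1253 stretches of 50 bases in the Eno1 coding sequence, 1011 (80.7%) occur letter for letter in Eno1b, 1044 (83.3%) in Gm4735, 136 (10.9%) in Gm5855 and 0 in Eno2 or Eno3, and 209 occur in no copy. At 5 coding positions Eno1b and Gm4735 share 1 base that Eno1 lacks, and at 4 of these Gm5855 carries it too. A window of 120 bases in exon 9 of Eno1 (coding bases 937 to 1056) is printed with the matching windows of both pseudogenes, 5′ to 3′ on the strand of each gene; capitals mark bases at which a pseudogene and Eno1 differ. The windows lie at chr4:150247522-150247641 (plus strand, within the coding part of Eno1 exon 9), chr2:80838077-80838196 (plus strand, within the pseudogene Gm4735) and chr3:130929616-130929735 (minus strand, within the pseudogene Gm5855).
Eno1: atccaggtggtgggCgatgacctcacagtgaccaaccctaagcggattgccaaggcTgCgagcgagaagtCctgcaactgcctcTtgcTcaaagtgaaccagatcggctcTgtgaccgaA
Gm4735: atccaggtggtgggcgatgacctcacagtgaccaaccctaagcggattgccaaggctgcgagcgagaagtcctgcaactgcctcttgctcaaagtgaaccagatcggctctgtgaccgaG
Gm5855: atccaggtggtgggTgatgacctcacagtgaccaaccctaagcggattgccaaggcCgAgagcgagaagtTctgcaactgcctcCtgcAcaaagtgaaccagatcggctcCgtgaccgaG
Gm4735 differs from Eno1 at 1 base of this window, Gm5855 at 8 and Eno1b at 2.

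The deposited values are RSEM expected counts, in which a read that matches several genes is divided between them, so a value need not be whole. In 43 of 48 bulk libraries at least 1 of Eno1, Eno1b, Gm4735 and Gm5855 was more than 0.05 from a whole number, and in 36 of these 43 the sum of all 4 was within 0.05 of one. In the small libraries the sum was whole in 72 of the 79 10-cell libraries with such values and in 52 of the 56 pool-and-split ones. Eno3 was whole in every library of the 3 kinds, and Eno2, which shares no 50-base stretch with Eno1, was not whole in 43 bulk libraries. Eno1 and its 3 copies are therefore also given as their sum, called summed Eno1 copies below.

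Total counts ran from 93694 to 23199230 per bulk library (median 9999625), from 1639385 to 6489275 per 10-cell library and from 1906783 to 5160788 per pool-and-split library. The shallowest bulk library, WT_21167 at 90 dpi, held 30 counts of Eno1, and values that rest on it are given without it as well. Levels below are CPM, counts scaled to a common library total with TMM factors. The 7 OPC markers examined (Pdgfra, Cspg4, Olig1, Olig2, Sox10, Ptprz1, Gpr17) summed to 1566 to 3014.5 CPM in the animals without a tumour and to 3749 to 7375 CPM in tumours, whereas 10 neuron markers summed to 6015 to 14063 CPM in the former and to 256 to 1330 CPM in the latter. The cells were labelled OPCs, and neuron markers thus exceeded OPC markers in every group but the tumours. The 6 muscle markers summed to 0 to 7.66 CPM in every animal.

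Among the copies, Eno1b (ENSMUSG00000059040, chromosome 18, 48045335 to 48048378 in the deposited table, annotated as protein-coding with 2 exons) was present in some animals and absent from others. At 90 dpi it had 0 counts in all 5 WT animals, and its CKO values ran from 29.4 through a median of 47.4 to 155 CPM in 7 animals. A count of 0 allows up to 3 counts, which over the 5 WT animals is 0.0470 CPM. These are the values that selected the genes. At 12 dpi the 5 WT animals had 0, 0, 0, 1.05 and 95.8 CPM and the 7 CKO animals 41.2 to 90.2 CPM (median 64.9). The WT animal at 95.8 CPM, WT_22056, lay above all 7 CKO animals, and the other 4 lay below all of them. At 150 dpi both groups had it, with 33.7 to 90.7 CPM in 7 tumours (median 78.0) and 31.7 to 125 CPM in 6 WT animals (median 76.5), and the groups overlapped. Eno1b lies within the span of the gene AC150274.2 on the same strand. Only gene spans were compared, and overlap of their exons was not examined.

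Gm4735 (ENSMUSG00000064193, a processed pseudogene of 1 exon, chromosome 2, 80837141 to 80838442) had its higher values mostly in the same animals. The 5 coding bases at which it differs from Eno1 are the 5 it shares with Eno1b. Expected counts divide reads that match both, so its values are not independent of those of Eno1b. At 90 dpi 4 of 5 WT animals had 0 counts and WT_22255 had 0.104 CPM, against 12.2 to 45.0 CPM in CKO (median 20.7). At 12 dpi the WT values were 0, 0, 0, 1.00 and 29.3 CPM, the highest again in WT_22056, and the CKO values 12.6 to 50.0 CPM (median 30.8). In tumours it ran from 0, in Tumor_21256, to 56.2 CPM (median 21.2), and in WT at 150 dpi from 13.0 to 59.6 CPM (median 20.3). Gm5855 (ENSMUSG00000105558, a processed pseudogene, chromosome 3, 130929366 to 130930670) lies within the span of the non-coding gene 2010110G14Rik on the same strand. Gm5855 was at 0 to 0.292 CPM outside the tumours and at 0 to 1.10 CPM in them. It did not pass the filter on low counts in any fit, so 5 of the 6 genes were tested in the bulk animals and in the sets of small libraries.

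**Figure D1:**
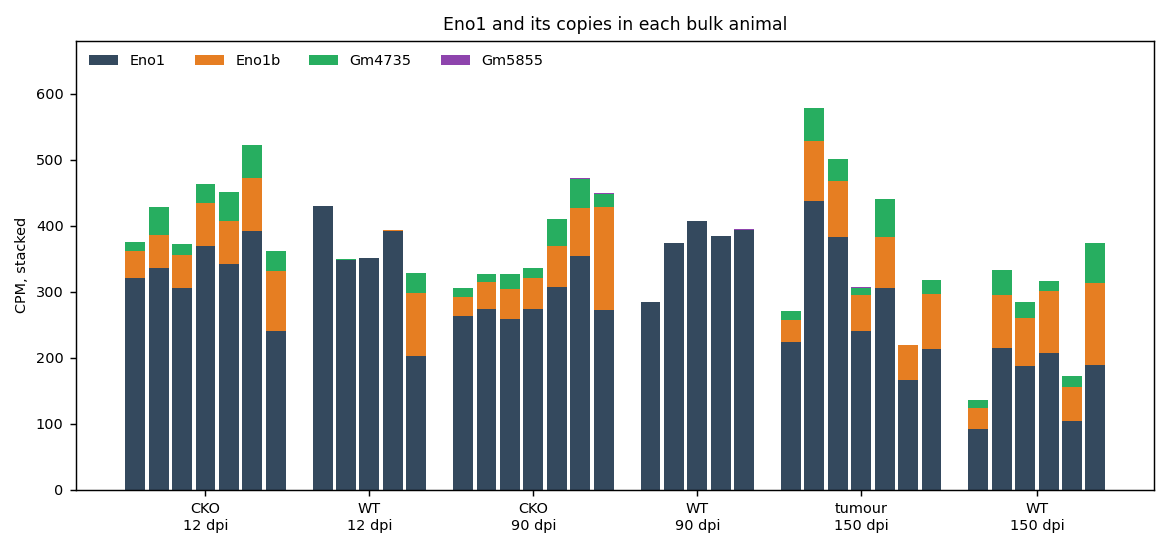
Stacked CPM of Eno1, Eno1b, Gm4735 and Gm5855 in each of the 37 bulk animals, ordered within a group by the share of Eno1b. Bars of the 5 WT animals at 90 dpi and of 4 of 5 WT animals at 12 dpi consist almost wholly of Eno1. Their heights lie within the range of all CKO animals (306 to 522 CPM), except that of the shallow WT_21167 (284 CPM). WT_22180 (349 CPM) and WT_22281 (351 CPM) lie below the CKO animals of their own time, 12 dpi (361 CPM or more).

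Where Eno1b was present it took a large part of the summed Eno1 copies. In 28 animals its share of the sum ran from 9.66% to 34.6%, in the other 9 from 0 to 0.258%, and no animal lay between. All 9 were WT: the 5 at 90 dpi and 4 at 12 dpi. For 7 of the 8 animals at 0 counts the depth allowed a share of at most 0.287%, and for WT_21167 of 10.0%. Median shares were 14.0% in CKO at 12 dpi, 14.2% in CKO at 90 dpi, 17.4% in tumours and 27.7% in WT at 150 dpi, where all 6 animals had 23.3% or more. Single CKO animals stood apart, with 25.0% in CKO_22210 at 12 dpi and 34.6% in CKO_20647 at 90 dpi. The share was close in both libraries of an animal: over the 11 animals with 2 libraries it differed by 0.756 to 4.75 percentage points (median 1.89), and in CKO_20647 it was 33.1% and 37.0%.

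Shares were tested where the choice of genes had not used the values, over 3 copies and 2 contrasts, with two-sided exact permutation tests over animals. At 12 dpi the CKO animals had an Eno1b share of 15.0% ± 4.66 (SD, n = 7) and the WT animals one of 5.89% ± 13.0 (SD, n = 5), a difference of 9.11 points (exact permutation p 0.133; 0.159 adjusted over the 6 tests). The Gm4735 share was 7.39% ± 2.72 against 1.85% ± 3.96, a difference of 5.54 points (exact permutation p 0.0227; adjusted 0.0682). Neither passed after adjustment with all animals. Without WT_22056, the 1 WT animal at 12 dpi with high shares, the differences were larger, at 14.9 and 7.31 points (exact permutation, adjusted p 0.0152 each). In edgeR's quasi-likelihood test across all genes, Eno1b and Gm4735 had log2 changes of 1.85 (SE 0.82, adjusted p 0.997, unadjusted 0.0311) and 2.20 (SE 0.87, adjusted p 0.997, unadjusted 0.0155) in CKO against WT at 12 dpi, where 0.0183% of 16349 genes were called. Without WT_22056 these were 7.15 and 7.38, both called. This animal is singled out for the values under test, so the shares and calls without it show its weight. They do not serve as tests of genotype.

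At 150 dpi the Eno1b share was lower in tumours, where 7 animals averaged 18.6% ± 4.77 (SD), than in WT, where 6 averaged 27.8% ± 4.03 (SD), a difference of -9.15 points (exact permutation p 0.00758; adjusted 0.0455). The shares of 2 tumours, 24.0% in Tumor_21256 and 26.1% in Tumor_21354, overlapped those of WT. The adjusted p rose above 0.05 in 9 of the 13 fits that left out 1 animal (0.0519 to 0.0682 in these). The Gm4735 share, 6.26% ± 4.01 in tumours and 9.94% ± 3.74 in WT, did not differ beyond the spread of the animals (exact permutation p 0.117; adjusted 0.159). The level of Eno1b itself was not called between tumours and WT (log2 change -0.13, SE 0.69, adjusted p 0.906 by edgeR), nor was that of Gm4735 (-0.08, SE 0.75, adjusted p 0.949). With SEs of this size the test does not show that the levels were equal.

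Eno1 (ENSMUSG00000063524, chromosome 4, 150236721 to 150248879, plus strand, 12 exons) was highest in WT at 90 dpi and lowest in WT at 150 dpi. In order of their means ± SD, WT at 90 dpi stood at 368 ± 48.5 CPM (n = 5), WT at 12 dpi at 345 ± 86.2 (n = 5), CKO at 12 dpi at 329 ± 48.7 (n = 7), CKO at 90 dpi at 286 ± 33.9 (n = 7), tumours at 281 ± 98.3 (n = 7) and WT at 150 dpi at 165.5 ± 53.5 (n = 6). Neighbours in this order differed by less than the larger of their SDs, except the last pair. Without WT_21167 the mean in WT at 90 dpi was 389 ± 14.1 CPM (SD, n = 4), for Eno1 as for the summed copies. The summed Eno1 copies spread less between groups: 425 ± 59.1, 370.4 ± 40.8, 375 ± 67.0, 368 ± 48.6, 376 ± 132 and 269 ± 94.0 CPM in CKO and WT at 12 dpi, CKO and WT at 90 dpi, tumours and WT at 150 dpi.

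**Figure D2:**
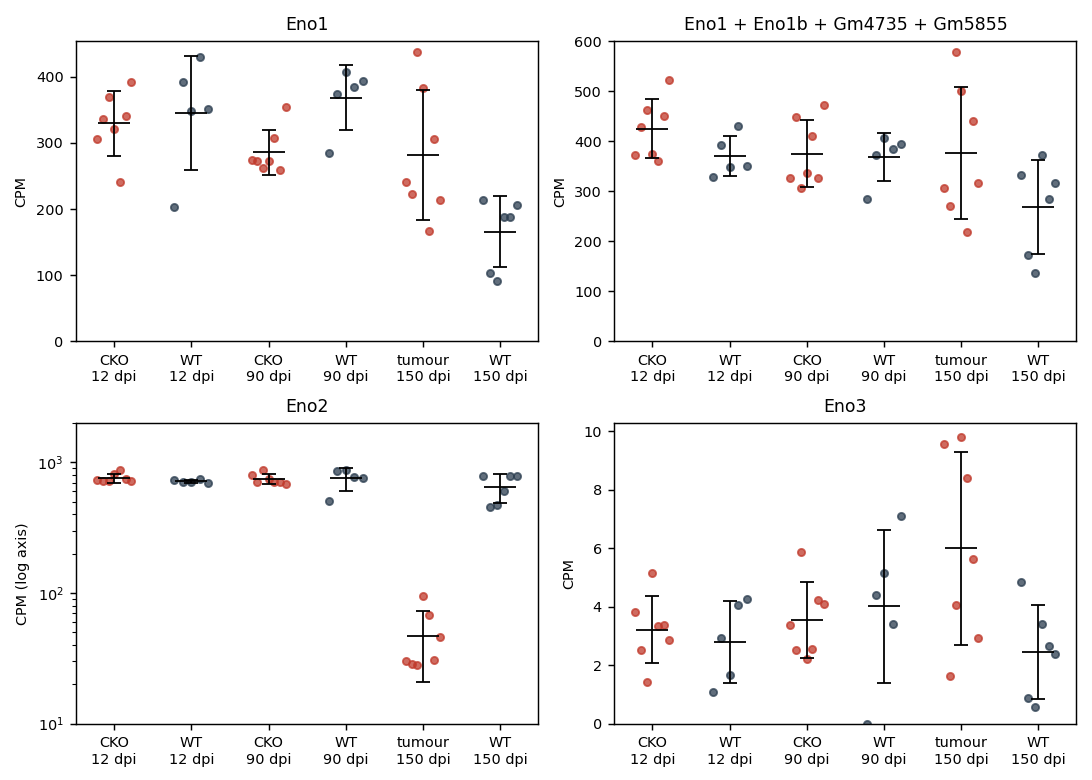
CPM of Eno1, of the summed Eno1 copies, of Eno2 (log axis) and of Eno3 in each bulk animal by group; red points are mutant and dark points WT animals, and bars give the mean ± SD. Eno2 is below 100 CPM in all 7 tumours and at 452 CPM or more in every other animal.

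In tumours against WT at 150 dpi Eno1 was higher by edgeR's quasi-likelihood test (log2 change 0.74, SE 0.19, adjusted p 0.0017). Tumour values ran from 166 through a median of 241 to 437 CPM and WT values from 91.8 through 188 to 214 CPM, and 2 of 7 tumours lay within the WT range. The same test on the summed Eno1 copies gave 0.46 (SE 0.19, adjusted p 0.0512), which did not pass. The summed values were 219 to 579 CPM in tumours and 137 to 373 CPM in WT. This result lies at the threshold, with adjusted p of 0.0048 by DESeq2 and 0.0089 with RLE size factors, under which the median of all genes shifted by 0.15. Against CKO at 90 dpi neither Eno1 (log2 change 0.00, SE 0.18, adjusted p 0.998) nor the sum (0.02, SE 0.18, adjusted p 0.947) was called in edgeR's test.

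Before tumours the summed Eno1 copies were not called by edgeR's quasi-likelihood test between CKO and WT at 12 dpi or between the times in CKO. In CKO against WT at 12 dpi their log2 change was 0.16 (SE 0.20, adjusted p 1.000), and that of Eno1 alone was -0.11 (SE 0.20, adjusted p 1.000). In CKO between 90 and 12 dpi, where 0% of genes were called by edgeR against 696 at an unadjusted p under 0.05 and 2 by DESeq2, the log2 change was -0.17 for the sum (SE 0.18) and -0.20 for Eno1 (SE 0.18), both with an adjusted p of 1.000. In WT between 90 and 12 dpi, where 0.00612% of genes were called, the log2 change of the sum was -0.02. In WT between 150 and 90 dpi, where 0.0183% were called, it was -0.43 for the sum, with overlapping animals, and -1.13 for Eno1 alone, with no overlap. These values of WT are given without a test, because the sum holds the copies whose values at 90 dpi chose the genes, and reads are divided between them and Eno1. For the same reason the comparison of CKO and WT at 90 dpi, where 0.0489% of genes were called, is a description: the log2 change was -0.39 for Eno1 and 0.01 for the sum.

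Eno2 (ENSMUSG00000004267, chromosome 6, 124760053 to 124769673, minus strand, 12 exons) was the enolase that fell in tumours. Its tumour values were 28.2, 28.5, 30.0, 30.9, 46.2, 67.5 and 95.1 CPM. In WT at 150 dpi they ran from 452 through a median of 692 to 789.8 CPM, and in CKO at 90 dpi from 683 through 707 to 877 CPM. Each tumour lay below every other animal. Tumours thus averaged 46.6 ± 25.7 CPM (SD, n = 7), WT at 150 dpi 647 ± 160.3 (n = 6) and CKO at 90 dpi 746 ± 70.0 (n = 7). By edgeR's quasi-likelihood test the log2 change was -3.81 against WT (SE 0.22, adjusted p 2.0e-16) and -4.04 against CKO at 90 dpi (SE 0.23, adjusted p 4.3e-17). These 2 comparisons share the tumour samples.

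In tumours against WT Eno1 and Eno3 were called higher and Eno2 lower, where 46.2% of all genes were called, 24.3% higher and 21.9% lower. Against CKO at 90 dpi Eno2 was called lower, where 49.1% of all genes were called, 26.4% higher and 22.6% lower, and Eno1 and Eno3 were not. Before tumours Eno2 was not called in the comparisons tested. It was at 759 ± 59.9 CPM in CKO and 716 ± 21.4 in WT at 12 dpi (log2 change 0.10, SE 0.22, adjusted p 1.000 by edgeR), and 746 ± 70.0 and 753 ± 150.1 at 90 dpi (log2 change -0.03, no test). Without WT_21167 the WT mean at 90 dpi was 816 ± 61.6 CPM (SD, n = 4). Over time its log2 changes were -0.02 in CKO between 12 and 90 dpi (SE 0.20), 0.11 in WT over the same span (SE 0.24) and -0.26 in WT between 90 and 150 dpi (SE 0.23), none called. How far the genotype difference itself moved between 12 and 150 dpi was tested directly and was -3.92 for Eno2 (SE 0.32, adjusted p 2.5e-12) and 0.84 for Eno1 (SE 0.27, adjusted p 0.0163) by edgeR, where 31.0% of genes were called, and 0.29 for the sum (SE 0.28, adjusted p 0.466).

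Per length of transcript, Eno2 exceeded Eno1 in every group but the tumours. Eno1 is taken here without its copies, and whether counts scale with transcript length in these libraries was not examined. In CKO at 12 dpi the mean levels were 272 CPM per kilobase for Eno2, 162 for Eno1 and 2.05 for Eno3. In tumours they were 16.7 for Eno2, 139 for Eno1 and 3.83 for Eno3. The per-length level of Eno1b was 35.3 in CKO at 12 dpi and 37.9 in tumours.

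Markers of neurons moved with Eno2. Of 10 neuron markers 0 were called higher and 9 lower in tumours against WT (median log2 change -3.42, against 0.06 over all genes), and 10 were lower against CKO at 90 dpi (median -3.66, against 0.12). For this and the marker counts below, 24.3% of all genes were called higher and 21.9% lower against WT. Against CKO at 90 dpi these shares were 26.4% and 22.6%. Rbfox3, a nuclear protein of mature neurons, averaged 4.63 ± 2.67 CPM over the 7 tumours and 208 ± 25.9 CPM over the 6 WT animals (SD; log2 change -5.46, SE 0.28, adjusted p 4.4e-18 by edgeR), and Camk2a, a synaptic kinase, at 25.7 ± 18.1 and 1017 ± 141 CPM (log2 change -5.29). Their part in the Eno2 difference was not tested, and in bulk samples fewer cells of a type and less RNA per cell cannot be told apart. The OPC markers moved the other way, with 6 of 7 higher in tumours against WT (median 1.45), among them Sox10 at 151 ± 56.4 and 39.6 ± 16.2 CPM and Pdgfra at 1213 ± 686 and 421 ± 162 CPM. Markers of other cells moved in the same comparison: 4 of 5 microglia markers (median 1.99) and 3 of 5 astrocyte markers (median 1.36) were higher, 1 of 6 oligodendrocyte markers was higher and 3 lower (median -1.24), and 1 of 5 endothelial markers was lower (median -0.47). In tumours and WT the microglia markers summed to 138 to 461 and 71.2 to 93.4 CPM, and the oligodendrocyte markers to 287 to 1481 and 1394 to 2549 CPM. Their part in the enolase differences was not tested.

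Eno3 (ENSMUSG00000060600, chromosome 11, 70657202 to 70662513, plus strand, 12 exons) was low throughout. It ran from 1.62 through a median of 5.62 to 9.80 CPM in tumours and from 0.567 through 2.53 to 4.84 CPM in WT at 150 dpi, and 3 of 7 tumours lay within the WT range. By edgeR the difference on the log2 scale was 1.21 (SE 0.43, adjusted p 0.0192). In a fit of both groups alone the adjusted p was 0.0832, and without Tumor_16844 or WT_21591 it was 0.0532 and 0.0518. Against CKO at 90 dpi, at 3.55 ± 1.30 CPM (SD, n = 7), the change was 0.77 (SE 0.39, adjusted p 0.103), and DESeq2 (adjusted p 0.0255), RLE size factors (0.0438) and the fit without Tumor_16839 (0.0450) called it. At 12 dpi the 7 CKO animals averaged 3.21 ± 1.14 CPM and the 5 WT animals 2.80 ± 1.41 CPM (SD; log2 change 0.25, SE 0.45, adjusted p 1.000), and at 90 dpi at 3.55 and 4.01 CPM, with 0 counts in WT_21167; without that animal the mean in WT was 5.01 ± 1.56 CPM (SD, n = 4). Its changes over time were 0.11 in CKO between 12 and 90 dpi (SE 0.39), 0.82 in WT over the same span (SE 0.49) and -0.90 in WT between 90 and 150 dpi (SE 0.47), none called. Of 6 muscle markers 2 passed the filter on low counts, and 1 of them, Acta1 (skeletal muscle actin), was lower in tumours (log2 change -3.19, SE 0.64, adjusted p 8.9e-05 by edgeR). Its mean ± SD was 0.386 ± 0.513 CPM in tumours against 3.86 ± 2.34 CPM in WT.

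**Figure D3:**
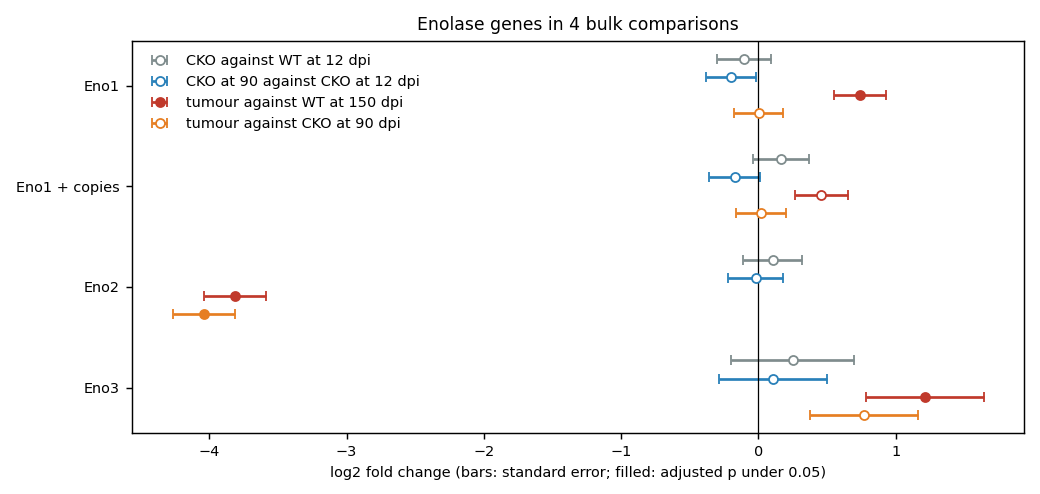
The edgeR log2 fold change with its standard error for Eno1, the summed Eno1 copies, Eno2 and Eno3 in 4 bulk comparisons; filled points passed an adjusted p of 0.05. The 2 tumour comparisons of Eno2 lie near -4, and Eno1 against WT at 150 dpi passed at 0.74 where the sum, at 0.46, did not.

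The other 19 genes of glucose uptake, glycolysis and lactate transport examined moved in both directions in tumours against WT: 4 were called higher, 10 lower and 5 not (median log2 change -0.47, against 0.06 over all genes). Of all genes 24.3% were called higher and 21.9% lower. The 4 of 19 called higher thus lay near the share over all genes, and the 10 of 19 called lower lay above it. The largest rises were those of Hk2, a hexokinase isoform (10.1 ± 5.30 against 1.06 ± 0.969 CPM; log2 change 3.13, SE 0.62, adjusted p 7.8e-05 by edgeR), and Slc16a1, a lactate transporter (74.3 ± 19.7 against 33.0 ± 6.79 CPM; 1.17). The largest falls were those of Pfkp, the platelet-type phosphofructokinase (89.6 ± 19.2 against 469 ± 53.8 CPM; -2.36), and Aldoa, an aldolase (179 ± 48.9 against 593 ± 183 CPM; -1.73). Eno2 fell further than each of these 19. Pgam1 and Pkm, which encode the enzymes just before and after enolase, were both lower (-1.24 and -0.40). Against CKO at 90 dpi 5 were higher, 10 lower and 4 not called (median -0.74, against 0.12), led by Hk2 (2.95) and Slc16a3 (1.26) and by Pfkp (-2.66) and Aldoa (-2.12). In that comparison 26.4% of all genes were called higher and 22.6% lower. With RLE size factors 4 were higher and 8 lower against WT, where 4839 and 2959 of all genes were. At 12 and 90 dpi 0 of 19 were called between CKO and WT by edgeR (medians 0.13 and 0.14, against 0.03 and 0.04 over all genes), where 0.0183% and 0.0489% of all genes were. At an unadjusted p under 0.05 stood 2 and 0 of the 19, against 793 and 850 of 16349 genes.

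**Figure D4:**
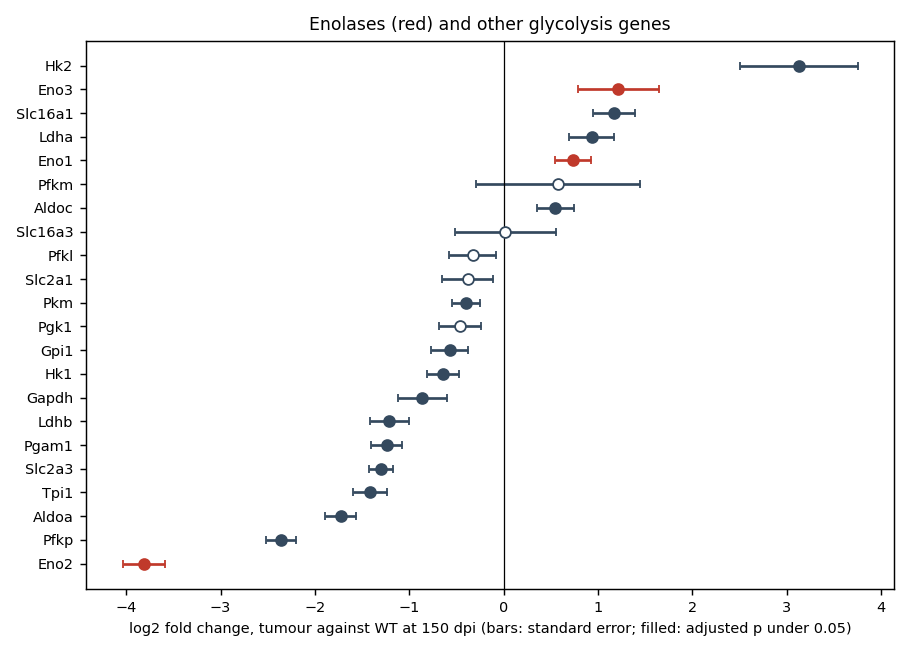
The edgeR log2 fold change in tumours against WT at 150 dpi, with its standard error, for Eno1, Eno2 and Eno3 (red) and 19 other glycolysis and transport genes (dark), in order of size; filled points passed an adjusted p of 0.05. Eno2 lies at the lower end at -3.81 and Hk2 at the upper end at 3.13.

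Copies of other glycolysis genes were listed by symbol alone. Copies under other names, such as the Gm numbers of Gm4735 and Gm5855, were not looked for. Of 13 listed (pseudogenes of Pgam1, Gapdh, Ldha and Tpi1 and the testis or muscle forms Pgam2, Pgk2, Gapdhs and Ldhc), 2 passed the filter on low counts, Pgam2 and Gapdhs. Gapdhs was higher in tumours against CKO at 90 dpi (log2 change 2.14, SE 0.73, adjusted p 0.0149 by edgeR). Against WT at 150 dpi its change was 1.97 (SE 0.84, adjusted p 0.0516). The 13 together summed to 0 to 2.91 CPM in the animals without a tumour and to 0.645 to 24.1 CPM in tumours, whose median of 1.63 CPM lay near those of CKO at 12 dpi (2.28) and 90 dpi (1.61).

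In the small CKO libraries Eno1 was detected, with a value above 0, in all 112 10-cell and all 80 pool-and-split libraries (exact 95% binomial interval for each 10-cell time 93.6 to 100%, covering counting error only). Summed by set, Eno1 was at 729 ± 67.5 CPM at 12 dpi and 796 ± 124 at 90 dpi in 10-cell sets (SD, n = 4 sets each), and at 643 ± 98.1 and 1055 ± 231 CPM in pool-and-split sets. The log2 changes over time were 0.13 (SE 0.20, adjusted p 0.907) and 0.70 (SE 0.25, adjusted p 0.598, unadjusted 0.0192) by edgeR, and those of the sum 0.05 (SE 0.20) and 0.69 (SE 0.24, adjusted p 0.596). The pool-and-split sets at 90 dpi, at 799.9 to 1354 CPM, lay above all 4 at 12 dpi, at 515 to 741 CPM. By edgeR 0% of genes were called in either kind, against 1034 and 1050 at an unadjusted p under 0.05, and DESeq2 called 274 and 523. The labels do not say whether sets are separate animals, so these tests measure the spread between sets.

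Eno2 was at 212 ± 46.0 CPM at 12 dpi and 204 ± 32.4 at 90 dpi in 10-cell sets and at 236 ± 94.8 and 346 ± 129.6 CPM in pool-and-split sets (SD, n = 4 sets each). It was detected in 54 of 56 10-cell libraries at 12 dpi (96.4%, interval 87.7 to 99.6%) and in each of the other libraries. Over time its log2 changes were -0.04 (SE 0.29, adjusted p 0.984) and 0.59 (SE 0.43, adjusted p 0.769) by edgeR. Neuron markers in the same sets summed to 2644 to 4165 CPM at 12 dpi and 1673 to 2199.9 CPM at 90 dpi in 10-cell sets. In pool-and-split sets these markers summed to 2118.5 to 3241 CPM at 12 dpi and 1647 to 1833 CPM at 90 dpi. They were thus lower at 90 dpi where the mean of Eno2 was higher, neither change being called. Their part in the Eno2 level was not tested. Eno3 was detected in 30.4% (interval 18.8 to 44.1%) and 48.2% (34.7 to 62.0%) of 10-cell libraries at 12 and 90 dpi, and in 40.0% (24.9 to 56.7%) and 55.0% (38.5 to 70.7%) of the pool-and-split ones, with single libraries up to 597 CPM. Its changes over time were not called (log2 1.42, SE 1.14, adjusted p 0.805, and 3.19, SE 2.05, adjusted p 0.740 by edgeR).

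Eno1b varied from library to library within the sets. It was detected in 37 of 56 10-cell libraries at 12 dpi (66.1%, interval 52.2 to 78.2%) and 43 of 56 at 90 dpi (76.8%, 63.6 to 87.0%), and in 28 of 40 (70.0%, 53.5 to 83.4%) and 29 of 40 (72.5%, 56.1 to 85.4%) pool-and-split libraries. Its share of the summed copies ran from 0 to 36.2% in single libraries, and both ends occurred in 1 set, male 2 of the 10-cell libraries at 12 dpi. Summed by set the share was 2.82% to 14.1% and 0.908% to 11.6% in 10-cell sets at 12 and 90 dpi. In pool-and-split sets it was 0.272% to 12.8% and 2.30% to 10.6%, so no set was at 0. The lowest set, female 2 of the pool-and-split libraries at 12 dpi, had it in 2 of 10 libraries. Its share of 0.272% was close to the 0.258% of WT_22178, a bulk animal grouped above with those without Eno1b. In bulk CKO animals, whose libraries were amplified by another method, the share ran from 9.66% to 34.6%, and the difference was not tested. The changes of Eno1b over time were not called (log2 -0.89, SE 0.76, adjusted p 0.817, and 0.26, SE 1.02, adjusted p 0.976 by edgeR).

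**Figure D5:**
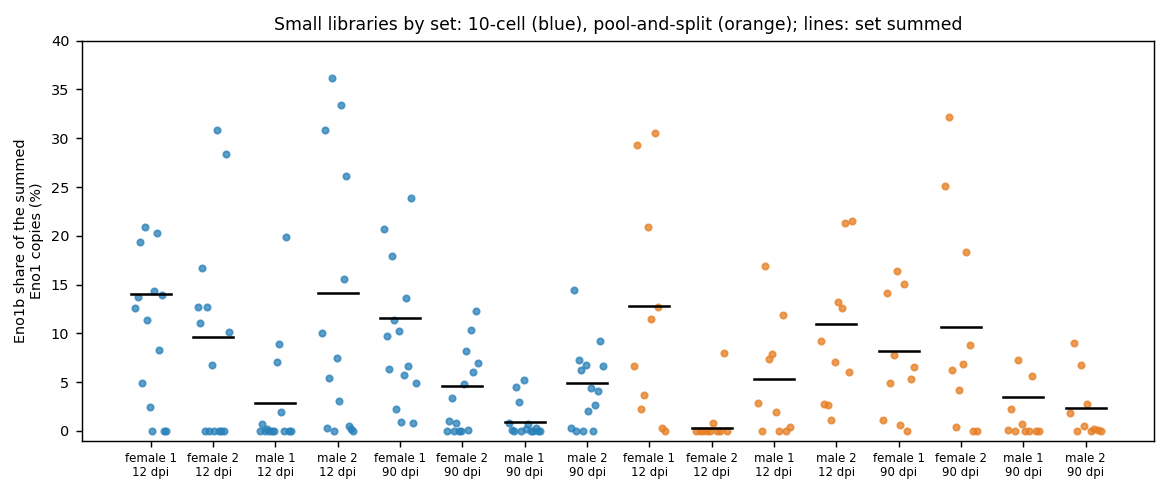
Share of Eno1b in the summed Eno1 copies in each small library, by set; blue points are 10-cell and orange points pool-and-split libraries, and black lines give the share after summing the set. Libraries at or near 0% occur beside libraries above 20% within 1 set, as in male 2 at 12 dpi.

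Gm4735 was detected in 19.6% and 16.1% of 10-cell libraries at 12 and 90 dpi (intervals 10.2 to 32.4% and 7.62 to 28.3%) and in 15.0% and 17.5% of the pool-and-split ones (5.71 to 29.8% and 7.34 to 32.8%). In 10-cell sets it was at 0.936 to 16.2 CPM at 12 dpi and 0 to 1.56 CPM at 90 dpi. The log2 change of -4.37 (SE 1.67) had an adjusted p of 0.664 by edgeR and of 0.0395 by DESeq2. Gm5855 was detected in 25.0% and 19.6% of 10-cell libraries (intervals 14.4 to 38.4% and 10.2 to 32.4%) and in 27.5% of the pool-and-split ones at both times (14.6 to 43.9%), never above 2.34 CPM.

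The spread between 10-cell libraries was compared with that between pool-and-split libraries, which were divided from a pool of captured cells. No enolase gene was called by limma at either time, where 0.0252% of 7926 genes at 12 dpi and 0.639% of 9704 genes at 90 dpi were. Single libraries were the replicates in this test, with no term for set. Libraries of a set may not be independent, so its SEs and p-values may be too small. The mean absolute deviation of log2(CPM + 1) from the set median was larger in 10-cell libraries for Eno2, at 2.35 against 1.25 at 12 dpi (difference 1.10, SE 0.37, adjusted p 0.344, unadjusted 0.0037) and 1.52 against 0.957 at 90 dpi (0.56, SE 0.26, adjusted p 0.312, unadjusted 0.0328). For Eno1 the differences were 0.32 (SE 0.18, adjusted p 0.595) and -0.21 (SE 0.14, adjusted p 0.540), and for Eno1b 0.79 (SE 0.42, adjusted p 0.553) and -0.47 (SE 0.37, adjusted p 0.622). Eno3 was detected in enough libraries at 90 dpi alone (-0.63, SE 0.51, adjusted p 0.631).

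Likeness was described by Pearson's r of log2 CPM over the 37 bulk animals, which share the groups and differ in depth. The 4 genes most like Eno2 were Gm42372 (r 0.991), Pcp4l1 (0.988), Ablim3 (0.9865) and Fam163b (0.986). Those most like Eno1b were Tagap (0.785), Rps2-ps13 (0.733), AL928687.1 (0.690), Gm8210 (0.689) and Gm13841 (0.689), over values that include the zeros by which Eno1b was chosen. Those most like Eno1 were Ppp1r35 (0.743), Afap1l1 (0.738), Gm10123 (0.706), Mlx (0.705) and Gm20390 (0.6999). Those most like the summed copies were Gm10123 (0.838), Gm20594 (0.828), Maf1 (0.796), Dctn2 (0.795) and Timm22 (0.794).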

How the data were processed

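The authors deposited RSEM expected counts per gene for 240 libraries, neither scaled nor pooled. RSEM and Bowtie2 with GRCm38 are named in the submitters' processing notes, without versions; which annotation and settings were used is not given in the sources used here. Per the labels' protocols, T7 linear amplification was used for bulk RNA and PCR for the small libraries. The 6 genes and all lists were chosen with earlier results of these data known.

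Values were rounded. The 11 bulk animals with 2 libraries had these summed, leaving 37 animals; small libraries that share a time, a sex and a final label number were summed into sets. Genes passing filterByExpr (minimum count 10, total 15) were tested in edgeR 4.0.16 (R 4.3.3) by quasi-likelihood F test with TMM scaling and sex as a covariate, Benjamini-Hochberg adjusted over all genes; calls are at 0.05. A second fit replaced Eno1, Eno1b, Gm4735 and Gm5855 by their sum. Spread was tested with limma 3.58.1 on genes detected in at least 0.5 of libraries, pseudocount 1. The chosen copies got no test in bulk contrasts with 90 dpi animals, nor Eno1 or the sum in those with WT at 90 dpi. Alternatives were DESeq2 1.42.0, other scaling, filters, covariates and samples. Scripts were tested on simulated data. Named from each list are the 2 largest rises and falls among called genes; Pgam1, Pkm and Gapdhs were named with their values in view. For likeness the 5 genes with the highest r are named, except 1 that is not reported here.

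Intervals are exact Clopper-Pearson; these and 3-count floors cover counting error only. Nothing in the labels says that samples are independent beyond their numbers, so p-values measure the spread between them. Sequences are from GENCODE M21 transcripts (GRCm38); the end of Eno1b differs there from the deposited table.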

Additional observations from a re-analysis of the deposited data

Results flagged for a closer look

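Single samples stood apart from the rest of their group, by the gap to the next sample relative to the range, in 17 of 86 groups of values examined. The limit used is one that chance passes in about 1 in 20 groups of independent, normally spread values. Here 5 of the 17 hold a single value above 0 among zeros, and levels and shares of 1 animal recur, so that rate need not apply. In WT at 12 dpi WT_22056 did so for Eno1b (95.8 CPM, 29.2% of the summed copies), Gm4735 (29.3 CPM, 8.93%) and Gm5855 (0.292 CPM). In WT at 90 dpi WT_21167, the shallowest library, was low for Eno1 and the sum (284 CPM for both), and WT_22255 was the one animal with counts of Gm4735 (0.104 CPM, 0.0328%) and of Gm5855 (0.104 CPM). Among CKO animals CKO_20647 had 155 CPM and 34.6% Eno1b at 90 dpi and CKO_22210 25.0% at 12 dpi. Gm5855 was at 1.10 CPM in Tumor_16713 and 0.189 CPM in WT_21593. Among the pool-and-split sets, female 2 at 90 dpi had 539 CPM of Eno2 and male 1 at 12 dpi 68.4 CPM of Eno3. The causes were not tested.

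The difference between mutant and WT was not the same at 150 and 12 dpi for Eno2 (log2 -3.92) and Eno1 (0.84), by a test of the change itself in edgeR. With Eno1 and its copies summed it was 0.29 (adjusted p 0.466), which did not pass.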

How the results depend on the processing

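Of the alternatives to each member result, most left direction and call as they were; the exceptions follow, and the cause was not tested unless stated. With the 4 rows of the Eno1 copies replaced by their sum, the log2 change of Eno1 went to 0.16 in CKO against WT at 12 dpi, 0.0076 at 90 dpi, 0.46 in tumours against WT, -0.43 in WT at 150 against 90 dpi and 0.29 for the change of the genotype effect. In tumours against WT the sum was called with DESeq2 (0.60), RLE (0.61) and only genes averaging 10 CPM or more (0.58). It was also called with sex left out of the model (0.48) and with the deepest library (0.45). Of 13 fits without 1 animal 7 called it, at 0.52 to 0.63 in these and 0.33 to 0.63 over all 13. Eno3 there was not called in the compared groups alone (1.27) and ran from 1.04 to 1.496 without single animals; against CKO at 90 dpi it was called with DESeq2 (0.95) and RLE (0.95), with 0.60 to 0.92 without single animals. Uncalled values near 0 changed sign. In tumours against WT, Eno1b was 0.035 with DESeq2 and 0.022 with RLE (-0.29 to 0.081 without single animals), and Gm4735 0.15, 0.054 and, at a mean of 10 CPM, 0.0018 (-0.28 to 0.35). Against CKO at 90 dpi Eno1 was -0.013 with no filter, -0.023 with no sex covariate and -0.0024 in the compared groups alone (-0.11 to 0.075), and the sum ran from -0.085 to 0.098. In CKO over time the deepest library gave 0.0045 for Eno2 (-0.076 to 0.0066) and -0.065 for Eno3 (-0.032 to 0.29). In WT at 90 against 12 dpi the sum was 0.0077 with no sex covariate and 0.021 in the compared groups alone (-0.063 to 0.058). Without WT_22056 Eno1b and Gm4735 were called at 12 dpi (1.46 to 7.15 and 1.83 to 7.38 over all animals). Without it they were also called for the change of the genotype effect (-7.31 to -1.59 and -7.58 to -1.83). This animal stands out by the values under test, so these calls describe its weight only. As log2 ratios to Eno1 the shares of Eno1b (5.64) and Gm4735 (5.14) passed at 12 dpi, and those of Gm5855 changed sign (-0.57, and -0.99 in tumours). Share differences without single animals ran from 7.45 to 14.9 points for Eno1b, 5.08 to 7.31 for Gm4735 and -0.0025 to 0.0197 for Gm5855 at 12 dpi, and from -10.4 to -8.004 for Eno1b in tumours. Eno2 fell in tumours under every alternative tested.

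In the sets, DESeq2 called Gm4735 in 10-cell sets (-4.41). Sets of the same sex and number at both times did not deviate together (r -0.031 to 0.024 in 10-cell and -0.035 to -0.0071 in pool-and-split sets over 4 pairs each). Of the 4 sets, 1 and 0 correlated best with their own number. The labels do not say what the number stands for, and 4 pairs cannot settle whether such sets share more than it. With the replicate block, Gm4735 in pool-and-split sets was 1.13 and no gene was called. Without single sets, in 10-cell sets Eno2 ran from -0.18 to 0.071 and the sum from -0.068 to 0.18, and in pool-and-split sets Eno1b from -0.37 to 0.72 and Gm4735 from -1.67 to 0.87. Counting only values of at least 5, detection at 12 and 90 dpi was 5.36% and 1.79% for Gm5855 in 10-cell and 5.00% at both in pool-and-split libraries, 87.5% for Eno2 at 12 dpi and 30.4% for Eno3 at 90 dpi in 10-cell libraries.

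Counts of called genes moved by over 1.5 times at 12 dpi (3; 1 at a mean of 10 CPM, 13 with DESeq2, 92 in the compared groups alone), at 90 dpi (8; 4 at a mean of 10 CPM, 14 with DESeq2), in WT at 90 against 12 dpi (1; 9 with DESeq2, 295 in the compared groups alone) and 150 against 90 dpi (3; 20 with DESeq2, 5 with no sex covariate), in CKO over time (0; 2 with DESeq2, 1 in the compared groups alone), in the sets (0; 274 and 523 with DESeq2, 1 with no filter in pool-and-split sets) and for the spread at 12 dpi (2; 11 and 0 with pseudocounts of 0.1 and 5, 6 with detection in 0.9 of libraries). Without single animals or sets these counts ran from 2 to 6 at 12 dpi, 4 to 8 at 90 dpi, 0 to 1 and 1 to 4 in WT over time, and, for the spread, from 0 to 4 at 12 dpi and 19 to 38 (62 with all sets) at 90 dpi. Both tumour counts and that of the change of the genotype effect stayed within 1.5 times. The shallow WT_21167 can by itself show little for Eno3 and the copies. In the other WT animals at 90 dpi 0 counts of Eno1b allowed a share of at most 0.0394% to 0.0669%.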
